A study of Homo sapiens with 6 samples.

Results

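The ERBB receptors are the family of 4 receptor tyrosine kinases to which the epidermal growth factor (EGF) receptor belongs, EGFR, ERBB2, ERBB3 and ERBB4. They were followed in A431 cells, a human epidermoid carcinoma line known for an amplified EGFR gene and a very high level of the receptor. Members were the genes of those names with a probe set in the array annotation, and where a gene had several probe sets the brightest was to stand for it. EGFR, ERBB3 and ERBB4 had 1 probe set each, so 3 of the 4 receptors and 3 of 17687 measured genes were analysed. No probe set carried the name ERBB2 in the annotation used here, and ERBB2 was not analysed here.

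There were 3 groups of 2 arrays. All cells had been grown with 10% serum and then starved for 24 h. The EGF plus gefitinib group received 100 ng/ml EGF together with 10 µM gefitinib, which blocks the kinase of EGFR, the EGF group received 100 ng/ml EGF alone, and the control group received neither. Harvest was after 30 min per the labels, a time that was not tested against the arrays. The labels leave the timing of gefitinib relative to EGF unstated, and no group given gefitinib without EGF was analysed here. Replicates are called biological in the labels without mention of separate cultures. The p-values therefore cover the spread between these arrays alone, and that spread may be technical.

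ERBB receptors sit in the cell membrane, bind a ligand on the outside and pair up, whereupon the kinase of each partner phosphorylates the tail of the other. EGFR binds EGF and its relatives, ERBB3 and ERBB4 bind the neuregulins, and ERBB2 has no known ligand of its own and serves as a partner. ERBB3 has a kinase of very low activity but a tail rich in docking sites for PI3 kinase, so that it passes a partner's signal to AKT. AKT keeps the FOXO transcription factors out of the nucleus, and in breast cancer cells FOXO factors are known to raise ERBB3 transcription when this pathway is blocked. In squamous epithelium EGFR drives proliferation and holds back differentiation.

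The values are log2 signals of probe sets as the authors deposited them, near equal in their median (6.07 to 6.16) over the 21448 transcript probe sets of the 6 arrays. A level of one probe set says nothing about that of another, since probes differ in brightness. The background limit was set on each array at the 95th percentile of its negative controls and lay at 7.14 to 7.65. Differences are between group means on the log2 scale, ± the standard error of a limma fit to all 6 arrays, with Benjamini-Hochberg adjustment of p over all 21448 probe sets. A difference was called at an adjusted p under 0.05, and with 6 arrays their number limits the precision. A total RNA sample cannot tell fewer cells with a transcript from less of it per cell.

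ERBB3, the neuregulin receptor that couples to PI3 kinase, was lowest with EGF alone, and its levels in the other groups overlapped. Its probe set measured 11.30 and 11.57 with EGF plus gefitinib, 9.13 and 9.01 with EGF, and 11.47 and 11.50 in the control cells. The EGF arrays stood apart from all 4 others, while the EGF plus gefitinib arrays lay on either side of the control arrays. With EGF, ERBB3 fell 5.34-fold, to 9.07 ± 0.08 against 11.49 ± 0.02 in control cells (SD, n = 2 each), a log2 difference of −2.42 ± 0.18 (limma, adjusted p = 0.000839). In cells given EGF plus gefitinib it rose 5.16-fold over EGF alone, to 11.44 ± 0.19 against 9.07 ± 0.08 (SD, n = 2 each), a difference of 2.37 ± 0.18 (limma, adjusted p = 0.000553). The 95% interval of this fold ran from 3.83 to 6.96.

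Set against untreated cells, EGF plus gefitinib left ERBB3 at a difference of −0.05 ± 0.18 (limma, adjusted p = 0.911). The 95% interval ran from 0.717-fold to 1.30-fold, so a change within that interval was not detectable with these arrays. Both ERBB3 calls held in each fit that left out 1 of the compared arrays, with differences of −2.47 to −2.36 for EGF against control and 2.23 to 2.50 for EGF plus gefitinib against EGF. The low end of the ERBB3 range depends on what is taken as background. With the 99th percentile of the negative controls as the limit, ERBB3 was not above background on either EGF array, and the folds became bounds, at least 2.77-fold lower with EGF than in control cells and at least 2.68-fold higher with EGF plus gefitinib than with EGF.

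**Figure D1:**
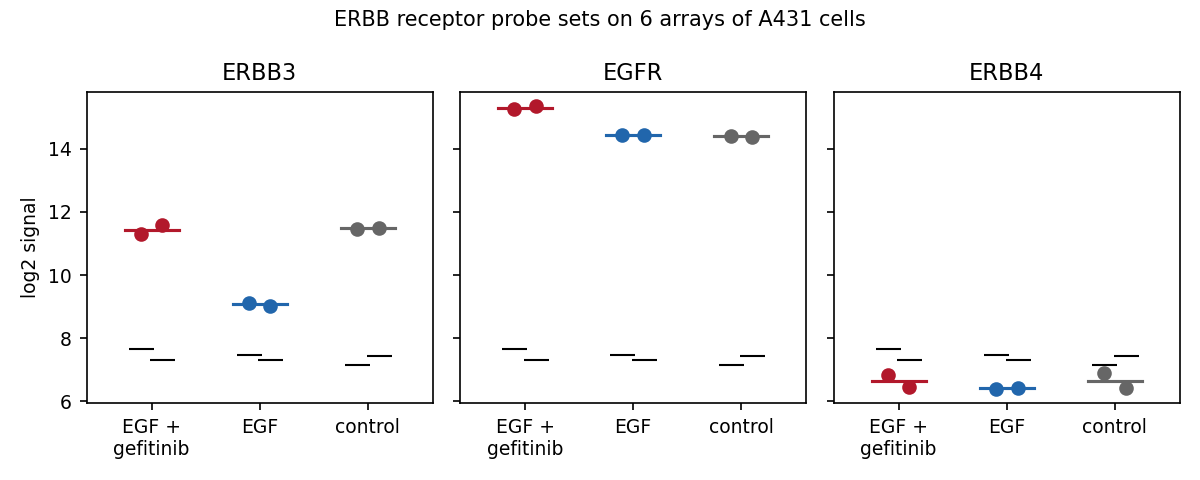
The log2 signal of the ERBB3, EGFR and ERBB4 probe sets on each array (points) with the group mean (coloured bars), for EGF plus gefitinib, EGF and control from left to right, 2 arrays each. Black dashes mark each array's background limit, 7.14 to 7.65. ERBB3 is low on the 2 EGF arrays, EGFR is high on the 2 EGF plus gefitinib arrays, and ERBB4 lies under the limit on every array.

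EGFR, the receptor of the ligand given and the target of gefitinib, was highest with EGF plus gefitinib. It measured 15.26 and 15.36 with EGF plus gefitinib, 14.44 and 14.44 with EGF, and 14.42 and 14.38 in control cells. The EGF plus gefitinib arrays were above all 4 others, and the 4 others lay within 0.1 of each other. EGFR rose 1.82-fold with EGF plus gefitinib, to 15.31 ± 0.07 against 14.44 ± 0.00 with EGF (SD, n = 2 each), a difference of 0.87 ± 0.17 (limma, adjusted p = 0.0125) with a 95% interval of 1.39-fold to 2.40-fold. Against control cells the rise was 1.87-fold, to 15.31 ± 0.07 against 14.40 ± 0.03 (SD, n = 2 each), a difference of 0.91 ± 0.17 (limma, adjusted p = 0.0372). These calls sat close to the threshold. The first was lost without EGF plus gefitinib 2, EGF 1 or EGF 2 in turn, and over all fits with 1 array left out its difference ran from 0.81 to 0.92 and its adjusted p from 0.0274 to 0.0729. The second was lost in every such fit, with differences of 0.85 to 0.96 and adjusted p from 0.0764 to 0.175.

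EGF alone gave a difference in EGFR of 0.04 ± 0.17 from control cells (limma, adjusted p = 0.916). Its 95% interval, 0.781-fold to 1.35-fold, stays below the 1.82-fold rise of EGF plus gefitinib over EGF. After quantile normalization this difference was −0.063, so it has no settled sign.

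The promoter sequences of EGFR are shown because EGFR is the member that rose above untreated cells and the one for which the RefSeq table of promoters had an entry and a called difference. The table held 2 windows for EGFR, 1 for ERBB4 and none for ERBB3. Each is given for the 250 bases before the annotated start, on the plus strand of chromosome 7, build GRCh38.p14. Capitals mark matches to the motifs searched on both strands, which were SP1 (GGGCGG), AP-2 (GCCNNNGGC), AP-1 (TGANTCA) and forkhead (TGTTTAC or TGTTTGC).
EGFR upstream start, chr7:55018767-55019016: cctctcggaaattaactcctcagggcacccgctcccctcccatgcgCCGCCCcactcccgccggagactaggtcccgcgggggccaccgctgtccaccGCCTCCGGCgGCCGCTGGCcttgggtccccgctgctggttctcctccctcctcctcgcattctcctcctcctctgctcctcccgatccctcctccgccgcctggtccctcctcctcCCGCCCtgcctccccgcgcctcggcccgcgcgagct
EGFR downstream start, chr7:55109589-55109838: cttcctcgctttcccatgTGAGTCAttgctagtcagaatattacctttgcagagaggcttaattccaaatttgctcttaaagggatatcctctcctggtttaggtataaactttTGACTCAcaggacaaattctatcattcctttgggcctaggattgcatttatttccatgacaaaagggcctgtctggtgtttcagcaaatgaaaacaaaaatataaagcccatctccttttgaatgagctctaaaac

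The upstream EGFR window was 73.6% G and C. It held 2 SP1 matches, 199 to 204 and 31 to 36 bases before the start, and 2 AP-2 matches, 144 to 152 and 134 to 142 bases before it. The downstream window, inside the gene, was 38.8% G and C and held 2 AP-1 matches, 226 to 232 and 130 to 136 bases before its start, and no motif of the other kinds. Of all 35116 windows in the table, 42.6% held an SP1 match, 19.8% an AP-2 match, 6.57% an AP-1 match and 6.09% a forkhead match. No motif overlapped another in the EGFR windows. These are matches of letters, and 1 probe set does not tell transcripts of the 2 starts apart.

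ERBB4, the other neuregulin receptor, was not above background in any group. It measured 6.82 and 6.46 with EGF plus gefitinib, 6.38 and 6.43 with EGF, and 6.89 and 6.41 in control cells, against limits of 7.14 to 7.65. No fold is given for it. The fitted differences were 0.24 ± 0.23 for EGF plus gefitinib against EGF (limma, adjusted p = 0.54), −0.25 ± 0.23 for EGF against control (adjusted p = 0.568) and −0.01 ± 0.23 for EGF plus gefitinib against control (adjusted p = 0.989).

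**Figure D2:**
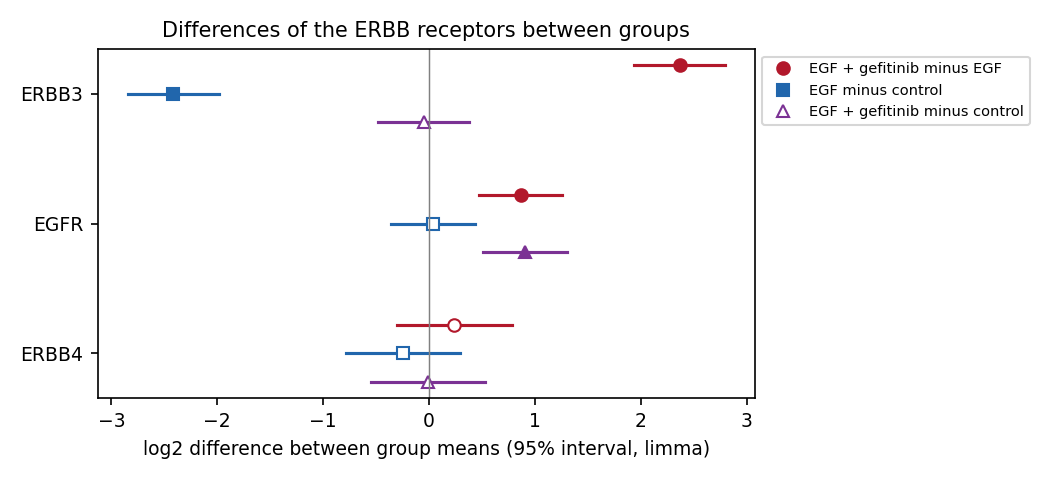
Differences of ERBB3, EGFR and ERBB4 between group means on the log2 scale, with 95% intervals from the limma fit (2 arrays per group). Filled symbols are called at an adjusted p under 0.05. ERBB3 was called for EGF plus gefitinib against EGF and for EGF against control, in opposite directions, EGFR for EGF plus gefitinib against each of the other groups, and ERBB4 in none.

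For EGF plus gefitinib against EGF, 2 of the 3 receptors were called, both higher, where 18.7% of all probe sets were called and 8.86% were called higher. With EGF against control 1 of 3 was called, lower, where 11.9% were called and 5.3% were called lower. With EGF plus gefitinib against control 1 of 3 was called, higher, where 3.89% were called, 2.19% higher and 1.7% lower. With 3 members these shares are a description and set the receptors apart from no other genes. They are taken over all probe sets, of which 38.4% to 42.1% were above the limit on an array. For lists with a larger part above background they are no matched background. The balance of ERBB3 and EGFR within an array, which no constant scaling of that array can move, restates the differences given above. The log2 signal of ERBB3 minus that of EGFR was −3.96 and −3.78 with EGF plus gefitinib, −5.31 and −5.43 with EGF, and −2.95 and −2.88 in control cells. The 3 groups did not overlap, with means of −3.87, −5.37 and −2.92 in the same order. These values come from the same probe sets as the differences above, are no separate evidence and were not tested. The gap between EGF plus gefitinib and control is mostly that of EGFR, whose call there was lost with any compared array left out.

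Genes with profiles like those of the receptors were sought among 7932 other genes above background on both arrays of at least 1 group. Likeness was the Euclidean distance between log2 profiles over the 6 arrays, each centred on its own mean. Nearest to ERBB3 were SSPN (distance 0.40), a membrane protein of the dystrophin complex, NMRK1 (0.43), a kinase of nicotinamide riboside, and SCEL (0.49), a protein of the cornified envelope of keratinocytes. They were followed by DTX4 (0.50), a ubiquitin ligase of the Deltex family, KLHDC2 (0.51), a substrate receptor of a ubiquitin ligase, and ACKR3 (0.52), an atypical receptor of the chemokine CXCL12. Their Pearson r with ERBB3 over the 6 arrays was 0.984 to 0.999, a description of genes chosen for their likeness. NMRK1 and DTX4 were not above background on either EGF array, so the depth of their dip is not known.

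SCEL measured 11.42 and 11.53 with EGF plus gefitinib, 9.58 and 9.45 with EGF, and 11.45 and 11.59 in control cells. Like ERBB3 it was low only on the EGF arrays among the 6, and its EGF plus gefitinib arrays overlapped the control arrays. ACKR3 measured 14.04 and 13.95 with EGF plus gefitinib, 12.11 and 12.04 with EGF, and 14.27 and 14.32 in control cells, so that its EGF plus gefitinib arrays stayed just under the controls.

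Nearest to EGFR were MMP14 (distance 0.11), a membrane-bound matrix metalloproteinase, NPIPB4 (0.14), one of a family of near-identical copies whose signals may mix, and FNBP4 (0.15), a formin-binding protein. ASXL1 (0.15), a chromatin regulator that works with a histone deubiquitinase, PCNX1 (0.16) and the zinc finger protein ZNF623 (0.17) followed. MMP14 measured 14.62 and 14.71 with EGF plus gefitinib, 13.84 and 13.76 with EGF, and 13.80 and 13.84 in control cells. It rose by 0.87 ± 0.17 with EGF plus gefitinib against EGF (limma, adjusted p = 0.0128), a call that was lost without EGF plus gefitinib 2, EGF 1 or EGF 2. The other 5 differed by 0.79 to 0.93 in that comparison. The choice of genes near EGFR fixed these sizes and calls, which are a description. FNBP4, ASXL1 and ZNF623 lost the call in every fit that left out 1 of the compared arrays.

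**Figure D3:**
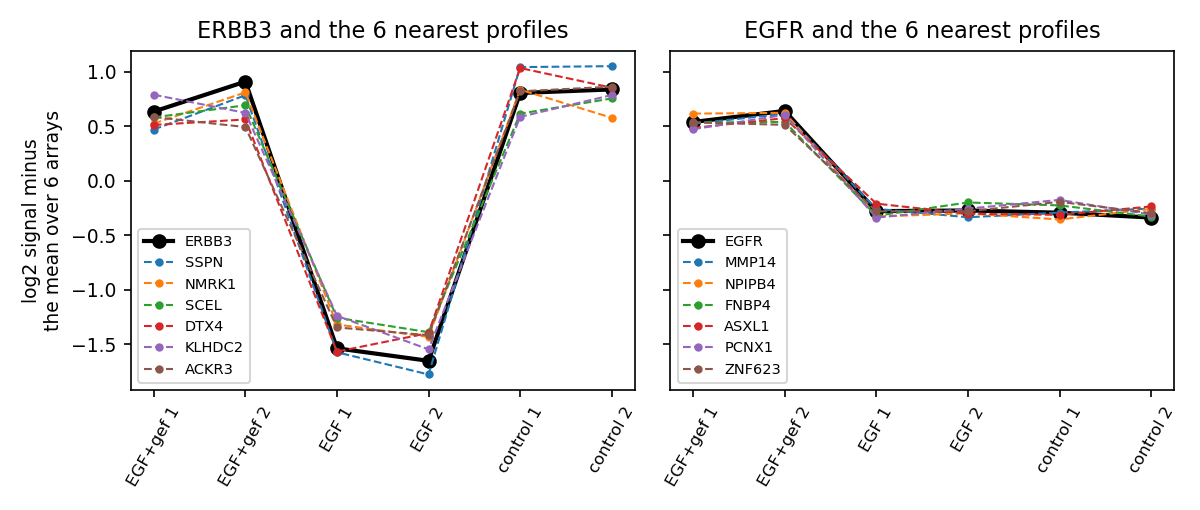
Log2 signal minus the mean over the 6 arrays, for ERBB3 (left) and EGFR (right) in black and for the 6 genes with the nearest profiles in colour. The ERBB3 profiles dip on the 2 EGF arrays, and the EGFR profiles rise on the 2 EGF plus gefitinib arrays only.

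A431 cells carry extra copies of the EGFR region, and the genes beside each receptor were also read. All groups are of this line, and copy number was neither measured nor tested. The 3 nearest genes with a probe set on each side were taken in the order of the RefSeq gene table of GRCh38.p14. LANCL2 and VOPP1 follow EGFR on the chromosome and are often amplified with it in tumours. LANCL2 measured 13.96 and 13.72 with EGF plus gefitinib, 14.17 and 14.06 with EGF, and 14.14 and 14.22 in control cells. VOPP1 measured 10.95 and 10.89 with EGF plus gefitinib, 11.58 and 11.63 with EGF, and 11.73 and 11.57 in control cells. Both were lower on the EGF plus gefitinib arrays than on all others, opposite to EGFR, by −0.27 ± 0.18 for LANCL2 against EGF (limma, adjusted p = 0.362) and by −0.69 ± 0.17 for VOPP1 (adjusted p = 0.0323). The VOPP1 call was lost in each fit that left out 1 of the compared arrays. On each array EGFR minus LANCL2 was 1.30 and 1.63 with EGF plus gefitinib, 0.27 and 0.39 with EGF, and 0.28 and 0.15 in control cells. The other 4 neighbours, GRB10, COBL, POM121L12 and SEPTIN14, were not above background on any pair of groups compared.

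Directly after ERBB3 lies PA2G4, which encodes an ERBB3-binding protein, also called EBP1, that takes part in ribosome production. It moved against ERBB3, with 15.67 and 15.66 with EGF plus gefitinib, 16.82 and 16.74 with EGF, and 16.24 and 16.25 in control cells. PA2G4 fell by 1.12 ± 0.17 with EGF plus gefitinib against EGF (limma, adjusted p = 0.00468), and differed by 0.53 ± 0.17 for EGF against control (adjusted p = 0.0883). The other 5 neighbours of ERBB3 were not called in any of the 3 comparisons, with differences of −0.52 to 0.51. They include RPS26 and RPL41, ribosomal protein genes with many near-identical copies in the genome. Of the 6 neighbours of ERBB4 the calls were in IKZF2, a transcription factor of the Ikaros family, and SPAG16, a protein of the sperm tail and cilia. IKZF2 was above background on 1 array, a control array, and gets no fold, with a difference of −1.95 ± 0.18 for EGF against control (limma, adjusted p = 0.00159). SPAG16 was at least 1.87-fold lower with EGF than in control cells (limma, adjusted p = 0.0137), a call lost without EGF 1, EGF 2 or control 1.

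**Figure D4:**
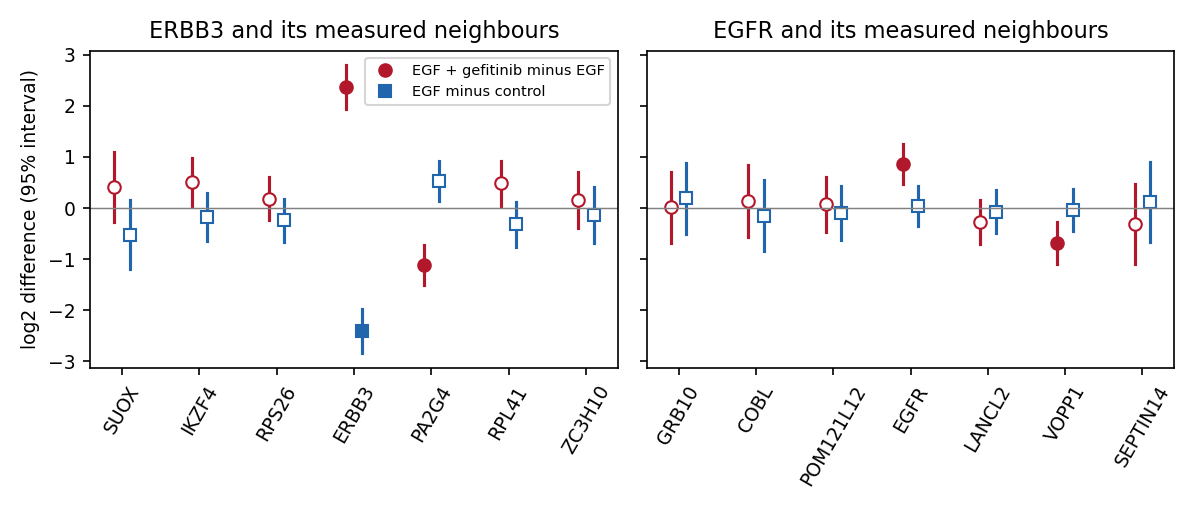
Differences between group means on the log2 scale with 95% intervals for ERBB3 (left), EGFR (right) and the 3 nearest measured genes on each side, in chromosome order but not to scale. Filled symbols are called at an adjusted p under 0.05. Beside ERBB3 only PA2G4 is called and beside EGFR only VOPP1, both lower with EGF plus gefitinib than with EGF.

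Among the ligands of the receptors, 10 of 11 listed had a probe set and 5 were above background in some group. With EGF against control 4 rose and 1 fell, where 6.61% of all probe sets were called higher and 5.3% lower. With EGF plus gefitinib against EGF 1 rose and 4 fell, where 8.86% were called higher and 9.81% lower. EREG, a ligand of EGFR and ERBB4, was at least 3.73-fold higher with EGF than in control cells and at least 3.29-fold lower with EGF plus gefitinib than with EGF. HBEGF, another ligand of this pair, was at least 3.51-fold higher with EGF than in control cells and fell by 1.22 ± 0.17 with EGF plus gefitinib against EGF (limma, adjusted p = 0.00364). Of the neuregulins, NRG1 and NRG4 were above background, and they moved in opposite directions.

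NRG1, the main ligand of ERBB3, measured 12.81 and 12.73 with EGF plus gefitinib, 14.14 and 14.35 with EGF, and 12.97 and 12.96 in control cells. It was high where ERBB3 was low, rising by 1.28 ± 0.18 with EGF against control (limma, adjusted p = 0.0058) and falling by 1.47 ± 0.18 with EGF plus gefitinib against EGF (limma, adjusted p = 0.00201). The first of these calls was lost without EGF 2. NRG4, a ligand of ERBB4, measured 9.42 and 9.19 with EGF plus gefitinib, 8.69 and 8.38 with EGF, and 10.48 and 10.58 in control cells. It fell 3.99-fold with EGF against control (limma, adjusted p = 0.00186). With EGF plus gefitinib it fell by 1.23 ± 0.20 against control cells (limma, adjusted p = 0.0254), a call lost in each fit that left out 1 of the compared arrays. With 1 compared array left out, 2 to 4 ligands were called higher for EGF against control and 0 for EGF plus gefitinib against EGF (1 at an unadjusted p under 0.05 with all arrays, limma, where 31.4% of all probe sets had such a p in either direction).

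Of 10 listed proteases and cofactors that process ligands and receptors, 9 were measured. RHBDL2, a rhomboid protease that can release EGF, fell by 1.19 ± 0.17 with EGF against control (limma, adjusted p = 0.00722), a call lost without EGF 2 or control 2. Unlike ERBB3 it was also lower with EGF plus gefitinib than in control cells, by 1.40 ± 0.17 (limma, adjusted p = 0.0147). That call was lost in each fit that left out 1 of the compared arrays. NCSTN, a subunit of the gamma secretase that cuts ERBB4, rose by 0.86 ± 0.18 with EGF plus gefitinib against EGF (limma, adjusted p = 0.0184), a call lost without EGF plus gefitinib 1, EGF 1 or EGF 2. The other 7, among them the sheddases ADAM10 and ADAM17, were not called in these comparisons. Of all probe sets 5.3% were called lower with EGF against control, and 8.86% higher with EGF plus gefitinib against EGF. With EGF plus gefitinib against control 1.7% were called lower. With 1 of 9 called in each of these comparisons, the counts are no result about the list.

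Adaptors and effectors that dock on the receptors had 21 of 24 measured. For EGF against control 3 rose and 3 fell, where 6.61% of all probe sets were called higher and 5.3% lower, so these counts lie not far from the background. For EGF plus gefitinib against EGF 6 rose and 3 fell, where 8.86% were called higher and 9.81% lower. Those that fell with EGF were PIK3R1, the regulatory subunit of PI3 kinase that docks on ERBB3, by 1.97 ± 0.20 (limma, adjusted p = 0.002), VAV3 by 1.64 ± 0.18 (adjusted p = 0.00291), and GAB1, a docking protein that recruits PI3 kinase, by 1.33 ± 0.20 (adjusted p = 0.00818). PIK3R1 with EGF plus gefitinib was still 1.15 ± 0.20 below control cells (limma, adjusted p = 0.0309). That call was lost in each fit that left out 1 of the compared arrays. GAB1 measured 9.65 and 9.81 with EGF plus gefitinib, 7.83 and 8.21 with EGF, and 9.29 and 9.40 in control cells, and rose by 1.71 ± 0.20 with EGF plus gefitinib against EGF (limma, adjusted p = 0.00189). The fall of GAB1 with EGF was not called without EGF 1 or control 2. With 1 compared array left out, 0 to 1 rose and 2 to 3 fell for EGF against control, and 2 to 6 rose and 0 fell for EGF plus gefitinib against EGF (4 fell at an unadjusted p under 0.05 with all arrays, limma).

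Genes that degrade, traffic or inhibit the receptors had 29 of 32 measured. With EGF against control 8 rose and 1 fell (background 6.61% higher and 5.3% lower), and with EGF plus gefitinib against EGF 2 rose and 7 fell (background 8.86% higher and 9.81% lower). The 1 that fell and the 2 that rose are no more than the background share. Of the 29 measured genes 26 were above background in some group, a larger part than of all genes (8449 of 17687). The shares are therefore no matched background for this list. ERRFI1, an inhibitor that binds the EGFR kinase, rose by 1.58 ± 0.19 with EGF against control (limma, adjusted p = 0.00381), and its values with EGF plus gefitinib (14.38 and 14.07) overlapped those with EGF (14.44 and 14.28). SOCS4, which promotes the breakdown of EGFR, rose by 1.23 ± 0.17 with EGF against control (limma, adjusted p = 0.00597), lost without EGF 2. CBLB, a ubiquitin ligase of activated receptors, measured 11.36 and 11.37 with EGF plus gefitinib, 9.61 and 9.72 with EGF, and 10.65 and 10.90 in control cells. It rose by 1.70 ± 0.18 with EGF plus gefitinib against EGF (limma, adjusted p = 0.0013), as did the ubiquitin ligase NEDD4L, by 1.65 ± 0.21 (adjusted p = 0.00261). SH3KBP1, an adaptor of CBL in receptor uptake, fell by 1.19 ± 0.17 (adjusted p = 0.00411). With 1 compared array left out, 1 to 4 rose and 0 to 1 fell for EGF against control, and 2 rose and 4 to 6 fell for EGF plus gefitinib against EGF.

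Of 19 transcription factors and cofactors reported to act on ERBB genes in other cells, 18 were measured. With EGF against control limma called 0 higher (4 at an unadjusted p under 0.05, as had 26.5% of all probe sets in either direction) and 5 lower, against 6.61% and 5.3% of all probe sets. For EGF plus gefitinib against EGF 4 rose and 2 fell, against 8.86% and 9.81% of all probe sets, and the 2 that fell are near that share. GATA3, a factor of epithelial differentiation, measured 11.20 and 10.91 with EGF plus gefitinib, 8.98 and 9.33 with EGF, and 11.99 and 11.87 in control cells. ELF3, an epithelial ETS factor known to bind the ERBB2 promoter, measured 9.53 and 9.46 with EGF plus gefitinib, 7.02 and 7.35 with EGF, and 9.65 and 9.04 in control cells. Both were lowest on the EGF arrays, and GATA3 with EGF plus gefitinib stayed below the control arrays. SP1, a factor of GC-rich promoters, rose by 1.11 ± 0.18 with EGF plus gefitinib against EGF (limma, adjusted p = 0.00595) and fell by 0.75 ± 0.18 with EGF against control (adjusted p = 0.037), a fall not called in any fit that left out 1 of the compared arrays. FOXO3 measured 11.58 and 11.92 with EGF plus gefitinib, 10.88 and 10.64 with EGF, and 10.69 and 10.66 in control cells, a rise of 0.99 ± 0.20 against EGF (limma, adjusted p = 0.0144) that was lost without EGF plus gefitinib 2 or EGF 2. With 1 compared array left out, 2 to 3 fell for EGF against control, and 3 to 4 rose and 1 to 2 fell for EGF plus gefitinib against EGF.

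Targets of FOXO factors and outputs of ERK were read beside the receptors. These lists were drawn up with earlier results of these arrays known and are not independent evidence of a direction. Of the FOXO targets 17 of 19 and of the ERK outputs 15 of 18 were above background in some group. The shares over all probe sets, most of them dim, are no matched background for them. Of 19 measured FOXO targets 13 fell and 2 rose with EGF against control, with a median difference of −1.66 against −0.03 over all genes and 5.3% of all probe sets called lower and 6.61% higher. With EGF plus gefitinib against EGF 15 rose and 1 fell, with a median of 2.93 against 0.03 over all genes and 8.86% of all probe sets called higher and 9.81% lower. Against control cells 9 of 19 were called higher with EGF plus gefitinib, as were 2.19% of all probe sets. FBXO32, a ubiquitin ligase of muscle atrophy, measured 12.45 and 12.43 with EGF plus gefitinib, 7.94 and 7.72 with EGF, and 11.17 and 11.00 in control cells. That count of 9 came to 0 to 1 with 1 compared array left out (limma, 14 at an unadjusted p under 0.05 with all arrays, as had 20.8% of all probe sets in either direction). In such fits 1 target rose and 10 to 12 fell for EGF against control.

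Of 18 ERK outputs 9 rose and 1 fell with EGF against control, with a median of 1.15, where 6.61% of all probe sets were called higher and 5.3% lower. In cells given EGF plus gefitinib 4 rose and 7 fell against EGF, with a median of −0.62, where 8.86% were called higher and 9.81% lower. Members of the list differed in pattern. FOSL1 measured 10.21 and 9.55 with EGF plus gefitinib, 13.88 and 13.87 with EGF, and 9.95 and 9.79 in control cells. ETV5 rose by 1.83 ± 0.23 with EGF plus gefitinib against EGF (limma, adjusted p = 0.00262). EGR1 measured 10.23 and 9.10 with EGF plus gefitinib, 11.80 and 11.77 with EGF, and 11.70 and 11.67 in control cells. FOS, below background throughout, measured 4.63 and 5.13 with EGF and 5.30 and 5.31 in control cells. Whether these values go with the labelled harvest time was not tested. DUSP6, a phosphatase that switches off ERK, measured 11.23 and 10.90 with EGF plus gefitinib, 12.58 and 12.42 with EGF, and 8.36 and 8.56 in control cells. It lay between the other groups with EGF plus gefitinib, 2.61 ± 0.20 above control cells (limma, adjusted p = 0.00618), a call lost without EGF plus gefitinib 2, control 1 or control 2. The count of 8 of these outputs called higher with EGF plus gefitinib than in control cells, where 2.19% of all probe sets were, came to 0 to 2 with 1 compared array left out, and for EGF plus gefitinib against EGF 2 to 3 rose and 4 to 6 fell.

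**Figure D5:**
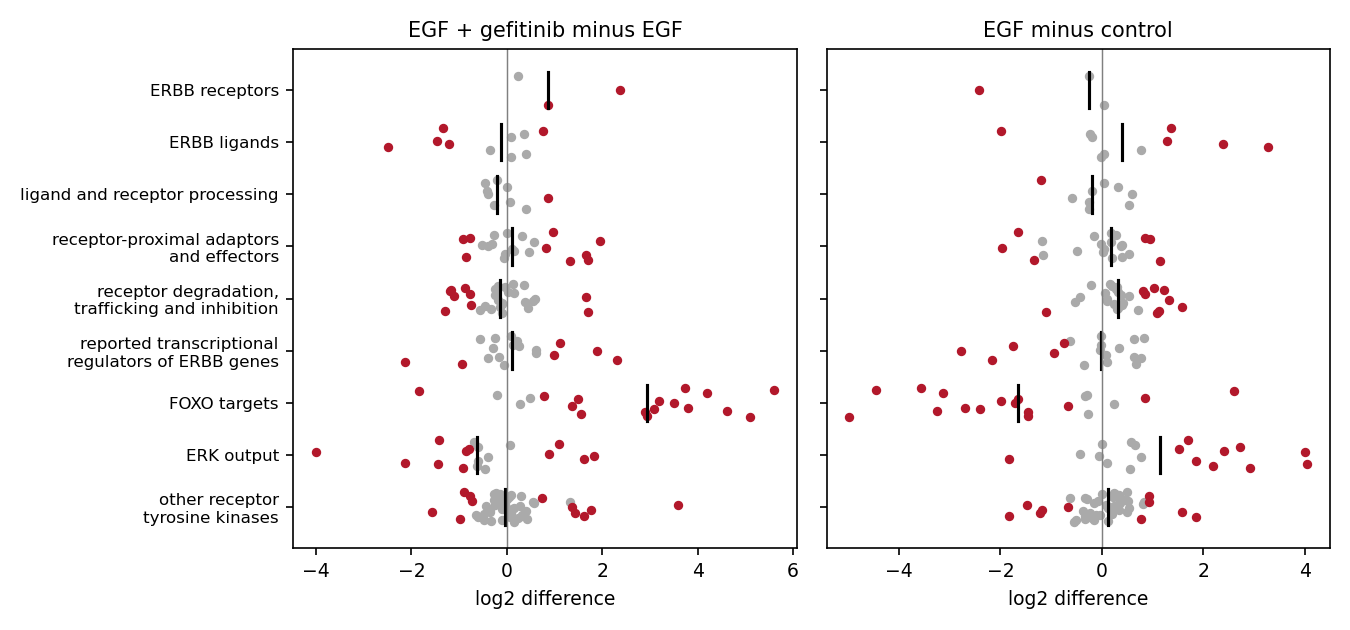
Log2 differences of the measured members of 9 gene lists, for EGF plus gefitinib minus EGF (left) and EGF minus control (right), each point a gene and each black bar the list's median. Red points are called at an adjusted p under 0.05. The FOXO targets centre at 2.93 and −1.66, the ERK outputs at −0.62 and 1.15, and the other receptor tyrosine kinases near 0.

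Among 51 measured receptor tyrosine kinases outside the family, 17 were above background in some group. With EGF against control 5 rose and 5 fell, where 6.61% of all probe sets were called higher and 5.3% lower, and their differences ran from −1.83 to 1.85, all smaller in size than that of ERBB3. With EGF plus gefitinib against EGF 6 rose and 5 fell, where 8.86% were called higher and 9.81% lower, with differences of −1.57 to 3.59. These counts are near the background and are no result about the kinases as a list. The highest of these, KIT, was not above background in any group. FGFR2, a receptor of fibroblast growth factors, measured 11.82 and 11.64 with EGF plus gefitinib, 9.98 and 9.97 with EGF, and 11.16 and 11.15 in control cells, lowest with EGF as ERBB3 was, with a fall of 1.19 ± 0.17 for EGF against control (limma, adjusted p = 0.00718). That fall was not called without EGF 1, EGF 2 or control 1, while the rise with EGF plus gefitinib against EGF, 1.76 ± 0.17 (limma, adjusted p = 0.00105), was called in each such fit. EPHA4, an ephrin receptor, fell by 1.83 ± 0.25 (limma, adjusted p = 0.00589) with EGF against control and rose by 1.62 ± 0.25 (adjusted p = 0.0056) with EGF plus gefitinib against EGF. Other ephrin receptors rose with EGF against control, where ERBB3 fell. These were EPHA2, by 1.85 ± 0.18 (limma, adjusted p = 0.00176), and EPHB6, by 1.58 ± 0.19 (adjusted p = 0.00383). EPHB6 fell by 1.57 ± 0.19 with EGF plus gefitinib against EGF (limma, adjusted p = 0.00213). MET, the receptor of hepatocyte growth factor, was 1.49 ± 0.19 higher with EGF plus gefitinib than in control cells (limma, adjusted p = 0.0155), lost without EGF plus gefitinib 2, control 1 or control 2. With 1 compared array left out, 2 to 3 of these kinases rose and 1 to 2 fell for EGF against control, and 4 to 5 rose and 1 to 3 fell for EGF plus gefitinib against EGF.

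The cells were checked against markers. All 8 measured markers of squamous epithelium, KRT5 and KRT14 among them, were above background on every array, and their summed signal was 17.93 and 17.98 with EGF plus gefitinib, 18.59 and 18.65 with EGF, and 18.08 and 18.08 in control cells on the log2 scale. The sum adds unlogged signals, so its brightest members weigh most. KRT5 measured 16.75 and 16.81 with EGF plus gefitinib, 16.79 and 16.86 with EGF, and 16.74 and 16.77 in control cells. SFN, the stratifin of squamous cells, was the brightest of the 8 on the EGF arrays (17.48 and 17.57) and moves the sum by construction. It fell by 2.09 ± 0.17 with EGF plus gefitinib against EGF (limma, adjusted p = 0.000612), a call held with each compared array left out, and rose by 1.02 ± 0.17 with EGF against control (adjusted p = 0.0118), a call lost in each such fit. DSG3, a desmosomal cadherin, rose by 1.21 ± 0.18 with EGF against control (limma, adjusted p = 0.00822), lost without EGF 1, EGF 2 or control 2. DSP, a desmosomal plakin, rose by 1.06 ± 0.29 with EGF plus gefitinib against EGF (limma, adjusted p = 0.0444), lost without EGF plus gefitinib 2, EGF 1 or EGF 2. Of 8 fibroblast markers 1 to 2 were above background on an array. LUM was above it on every array, at 7.92 to 9.53, and COL1A2 on both control arrays only. COL1A1, PDGFRA and PDGFRB were below background throughout. The summed signal was 9.16 to 9.58 with EGF plus gefitinib, 9.03 to 9.32 with EGF and 10.05 to 10.14 in control cells. Of these 8 markers 2 were called lower with EGF against control, where 5.3% of all probe sets were called lower. DCN, below background on every array, differed by −1.21 ± 0.19 (limma, adjusted p = 0.00923), a call lost without EGF 2 or control 2. LUM fell by 1.34 ± 0.26 (limma, adjusted p = 0.0194), a call lost in each fit that left out 1 of the compared arrays. Of 8 leukocyte markers only CD68, which carcinoma cells also express, was above background, and the summed signal was 12.32 to 12.72 with EGF plus gefitinib, 12.88 to 13.11 with EGF and 12.80 to 12.83 in control cells. Of 6 endothelial markers CDH5 alone reached the background limit, on 2 of the 6 arrays, and it differed like ERBB3, by −2.22 ± 0.24 for EGF against control (limma, adjusted p = 0.0027). The endothelial sum was 8.32 to 8.36 with EGF plus gefitinib, 7.08 to 7.23 with EGF and 7.86 to 8.14 in control cells. The other endothelial markers, PECAM1, VWF, KDR, TIE1 and CLDN5, were below background on every array.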

How the data were processed

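RNA of 6 samples of A431 cells was measured on 1 array each, with biotin labelling by the WT PLUS kit per the labels. The deposited values are log2 signals per probe set. The submitters' processing notes name Transcriptome Analysis Console, and give here neither its version nor the background correction or normalization used, so an effect of these steps on the values could not be examined. Values were used as deposited. The fit left out 2903 control probe sets of 24351 and took the other 21448 with no filter. The platform annotation named 17709 of these, for 17687 genes, and did not list 3739.

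One fit of 3 group means was made with lmFit and eBayes (limma 3.58.1, R 4.3.3) and all tests were two-sided. It had 3 residual degrees of freedom, to which eBayes added 4.22. The fit was tested on simulated data. Where the dimmer group was on no array above the background limit, a fold is written "at least" and sets the brighter mean against the mean limit of the dimmer group's arrays. Promoter sequences came from RefSeq (GRCh38.p14) and gene order from its gene table.

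Members, lists and tests were chosen with earlier results of these data known. In each list up to 3 called genes per comparison, by size of the moderated statistic, could be named, beside the 6 nearest profiles and the neighbours. The markers, ADAM10, ADAM17 and FOS were named outside this rule, after their values were seen. Alternatives were quantile normalization, median centring, a filter on dim probe sets, an intensity trend, fits of only the groups compared, a replicate block and leaving out each array.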

Additional observations from a re-analysis of the deposited data

How the results depend on the processing

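ERBB3 kept its direction and call for EGF plus gefitinib against EGF and for EGF against control under every alternative run. EGFR for EGF plus gefitinib against EGF was called under every alternative run that left out no single array, and ran from 0.81 to 0.92 with 1 array left out. For EGF plus gefitinib against control the EGFR difference of 0.91 was not called in a fit of only those groups (0.91, adjusted p = 0.0764), and it ran from 0.85 to 0.96 with 1 array left out. Same-numbered arrays did not deviate together over all probe sets. Their r was −0.0035 between EGF plus gefitinib and EGF, 0.021 between EGF plus gefitinib and control and −0.041 between EGF and control. An r over all probe sets, many of them dim, cannot tell whether same-numbered samples were handled together. With the replicate number as a block that EGFR difference was 0.91 (adjusted p = 0.0706) and 333 probe sets were called for EGF plus gefitinib against control, where the fit without the block called 834. Differences that were not called changed sign for EGFR with EGF against control (−0.063 after quantile normalization), ERBB3 with EGF plus gefitinib against control (−0.19 to 0.088 with 1 array left out) and ERBB4 in that comparison (−0.25 to 0.23). That count of 834 came to 2538 with the filter on dim probe sets, 2770 with an intensity trend and 247 with only the groups compared. It ran from 0 to 247 with 1 array left out, the 0 coming without EGF plus gefitinib 2 (3810 at an unadjusted p under 0.05, limma) and without control 1 (3280). For EGF against control 2554 became 3945 with the filter and 4237 with the trend, and ran from 726 to 2506. For EGF plus gefitinib against EGF 4005 ran from 1889 to 3406. A lone array is assumed to vary like the other groups, and the causes were not tested. No member had a further probe set to try, and ERBB4 did not pass the filter.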
